A study of Mus musculus with 4 samples.

Results

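The loci of Fos and Junb, a pair of immediate early genes, were examined for binding of BAP1, HCF1 and OGT in mouse macrophages. The members were the peaks of the 3 deposited lists that overlapped a window of 103 kb around either gene, on chromosome 12 from 86765000 to 86868000 for Fos and on chromosome 8 from 87450000 to 87553000 for Junb (build mm9). They numbered 50 of the 59420 peaks in all, 23 at Fos and 27 at Junb. The BAP1 list gave 17 of its 17662 peaks, the HCF1 list 18 of 31421 and the OGT list 15 of 10337. The loci were selected on the peaks of these same lists, with their high and wide peaks in view, so the scores and overlaps given here are a description and were not tested.

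Immediate early genes are transcribed within minutes of a stimulus, without new protein synthesis. Fos and JunB proteins dimerise through leucine zippers into AP-1 transcription factors, and AP-1 takes part in the activation and differentiation of macrophages. BAP1 is a deubiquitinase whose substrates include ubiquitinated histone H2A. HCF1 is a scaffold that ties transcription factors to chromatin-modifying enzymes. OGT attaches O-GlcNAc to nuclear and cytoplasmic proteins and cleaves HCF1 during its maturation, and BAP1 and OGT are both found in complexes with HCF1.

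The cells were primary bone marrow derived macrophages of strain C57BL/6, grown in medium conditioned by L929 cells and given no further treatment. The BAP1 library came from knock-in mice that carry BAP1 with a 3X Flag tag, and was precipitated with an anti-FLAG antibody. The HCF1 library, the OGT library and the input, which is DNA that was not precipitated, came from mice with wild-type BAP1. Antibodies against HCF1 and OGT1 were used for those precipitates. The labels give no age or sex, and do not say how many animals went into a library. The names of all 3 deposited lists refer to wild-type macrophages, whereas the labels give the knock-in for BAP1, and the labels were followed. Each protein was mapped in 1 library only, and replicate error is therefore lacking throughout. Read depth is also unknown, so a site without a peak was not shown to be empty, and scores were compared only within a list. Where proteins are ordered against each other, the order is by percentile in lists of unlike length. Ranks in the lists can give another order. The macrophage label could not be checked against marker genes, because peak positions in mm9 were not assigned to other genes.

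The stretches of 250 bases before the start of each gene are shown because every protein's peaks covered such a stretch in full. That cover was measured from the approximate mm9 gene positions. Both genes had an entry in the RefSeq promoter table for build GRCm38.p6, chr12:85473640-85473889 on the plus strand for Fos and chr8:84978749-84978998 on the minus strand for Junb. These coordinates are of another build than the mm9 positions of the peaks. Positions were not converted, so it was assumed and not shown that the printed bases are the covered ones.
Fos: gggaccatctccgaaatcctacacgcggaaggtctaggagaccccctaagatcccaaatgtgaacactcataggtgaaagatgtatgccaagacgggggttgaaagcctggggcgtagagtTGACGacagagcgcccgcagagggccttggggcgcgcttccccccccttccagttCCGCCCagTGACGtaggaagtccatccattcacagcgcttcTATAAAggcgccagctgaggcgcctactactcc
Junb: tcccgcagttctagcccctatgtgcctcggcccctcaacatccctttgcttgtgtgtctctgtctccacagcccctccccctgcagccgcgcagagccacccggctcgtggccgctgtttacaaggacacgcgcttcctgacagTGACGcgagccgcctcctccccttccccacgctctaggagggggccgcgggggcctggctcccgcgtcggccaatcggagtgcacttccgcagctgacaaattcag
Capitals mark exact matches, on either strand, to the motifs searched. The search covered the core of the serum response element (CCATATTAG), the cAMP response element (TGACGTCA) and its core (TGACG), the AP-1 site (TGAGTCA or TGACTCA), the ETS core (CCGGAA), the GC box (GGGCGG), the TATA box (letters TATAAA), the THAP11/ZNF143 core (ACTACA), the YY1 core (AAGATGG), the E-box (CACGTG), the NF-kappaB site (GGAAATTCC or GGACTTTCC) and the STAT site (TTCCNGGAA). TGACG is contained in TGACGTCA, and neither stretch held the longer form. The serum response element core was in neither stretch. Bases farther upstream were not searched, so a site there would have been missed.

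The core TGACG was the motif that both stretches held. It lay 66 to 62 and 129 to 125 bases before the Fos start and 106 to 102 bases before the Junb start. Of the 32851 promoter stretches of the same length in the table, 17.8% held it. The Fos stretch also held TATAAA, 33 to 28 bases before the start, and a GC box on the opposite strand, 74 to 69 bases before it, which occurred in 12.4% and 32.7% of all stretches. In Junb, TATAAA lay just past the annotated start, at bases 1 to 6, outside the printed stretch. The Fos stretch was 58.4% G or C with 15 CpG dinucleotides, and the Junb stretch 66.4% with 20, compared with medians of 52.4% and 6. ACTACA and AAGATGG, the THAP11/ZNF143 and YY1 cores, were not in these letters. The motifs were not sorted by whether their proteins bind HCF1.

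At Junb, a broad peak of each protein covered the whole gene and several kilobases on both sides. The BAP1 peak (chr8:87496874-87507342) was 10469 bp wide and scored 2959.21, the rank 4 score of 17662 and the rank 11 width. The HCF1 peak (chr8:87498047-87507054) was 9008 bp wide and scored 3100.00, a value it shared with 43 other HCF1 peaks, behind 6 higher ones. The OGT peak (chr8:87498108-87507014) was 8907 bp wide and scored 1390.21, with rank 28 by score and rank 5 by width of 10337. All 3 peaks were thus near the top of their lists in score and in width, with score percentiles of 99.98 (BAP1), 99.84 (HCF1) and 99.73 (OGT), where a percentile is the share of the list with a lower score.

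The edges of the HCF1 and OGT peaks over Junb nearly coincided. They reached 4.40 and 4.36 kb upstream of the start, and 2.75 and 2.69 kb past the end of a gene of 1851 bp. Their centres were 10 bp apart. The BAP1 peak reached farther on both sides, 4.69 kb upstream and 3.93 kb past the end, and its centre was 442 bp from that of HCF1. The gene coordinates used are those of the selection rule, which gives them as approximate (87500800 to 87502650 on the minus strand).

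At Fos, BAP1 and HCF1 also had peaks near the top of their lists, while OGT was found in separate, shorter peaks of lower rank. The BAP1 peak (chr12:86812563-86820193) was 7631 bp wide and scored 2549.73, rank 7 by score and rank 40 by width. It ran from 2.29 kb upstream of the start to 1.97 kb past the end and covered 100% of the gene (86814850 to 86818220 on the plus strand, also approximate). The HCF1 peak (chr12:86812731-86818086) was 5356 bp wide and scored 2113.65, rank 148 by score and rank 177 by width. It began 2.12 kb upstream, close to the BAP1 edge, but stopped just short of the gene's end and covered 96.0% of the gene.

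OGT at Fos was called as 3 peaks. Reads were not examined, so the signal between the called peaks is unknown. The peak at the start (chr12:86814304-86815657) was 1354 bp wide and scored 266.79, rank 1020 of 10337 and percentile 90.13. It was wider than the median OGT peak of 912 bp, and the other peaks were narrower than that. A second peak inside the gene (chr12:86816171-86816638) began after a gap of only 513 bp, was 468 bp wide and scored 61.95. The last, 1310 bp past the gene's end (chr12:86819530-86820282), was 753 bp wide and scored 59.47. Both were weak, with percentiles of 24.86 and 21.05. Together the OGT peaks covered 37.9% of the gene, compared with 100% at Junb, and the 3 proteins overlaid 1276 bases of Fos. The peak of OGT at the Fos start was centred at 0.13 kb from it, compared with 0.56 kb for HCF1 and 1.53 kb for BAP1.

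**Figure D1:**
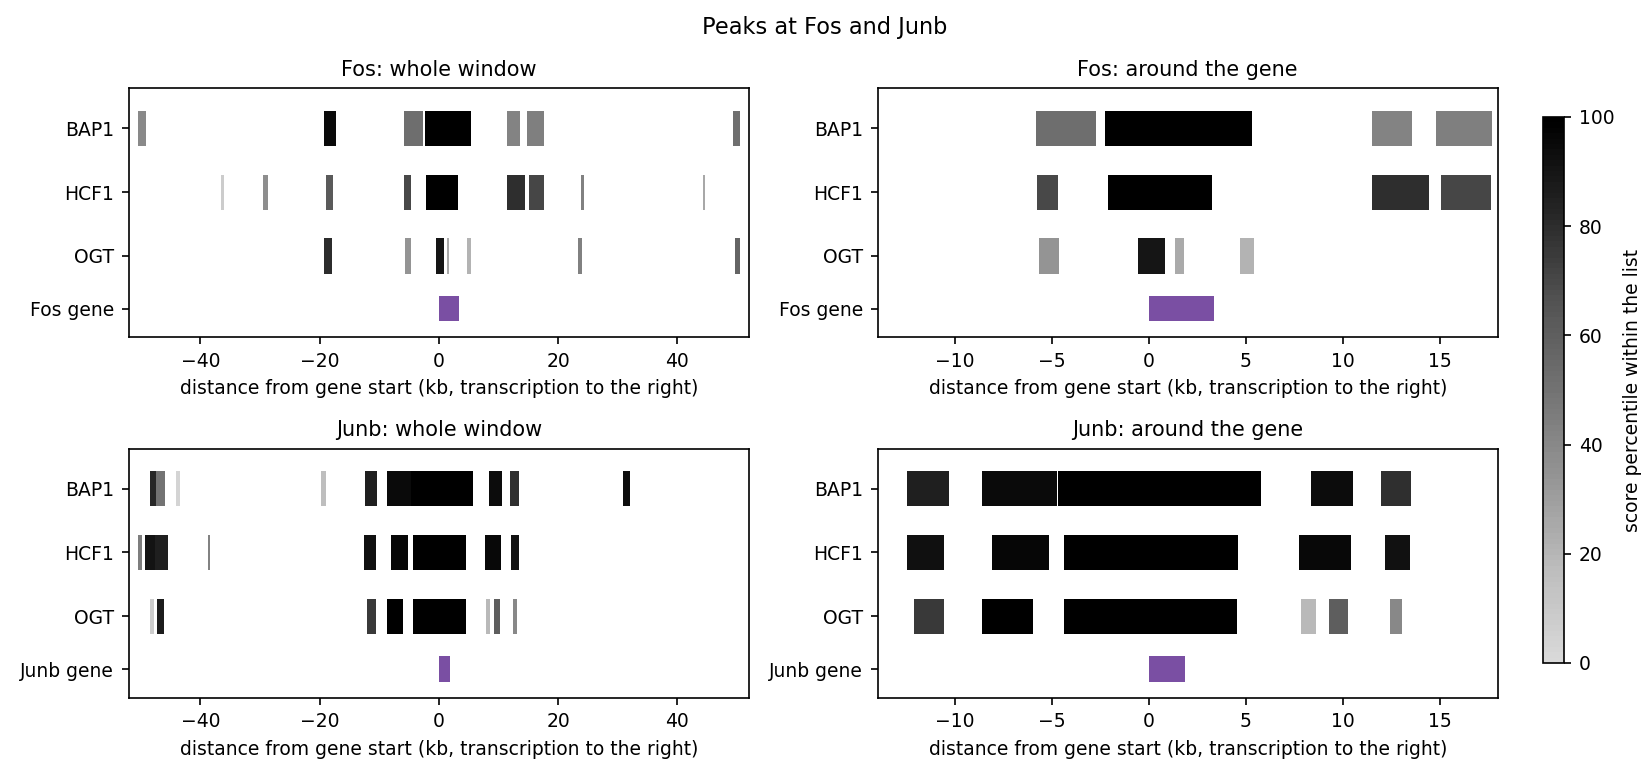
Peaks of BAP1, HCF1 and OGT as bars against distance from the gene start in kb, for Fos (top) and Junb (bottom), over the whole window (left) and around the gene (right). Darker bars have a higher score percentile in their list and the purple bar is the gene. At Junb the 3 proteins share 1 broad block of 8907 to 10469 bp, whereas at Fos OGT falls into 3 peaks of 468 to 1354 bp.

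Scores and widths are tied to each other, and this bears on the contrast between the genes. Across each whole list the score rose with the width (Spearman's rho was 0.69 in the BAP1, 0.84 in the HCF1 and 0.65 in the OGT list, across peaks, which are not independent). Divided by width, the scores at Fos were 334 per kb for BAP1, 395 for HCF1 and 197 for the OGT peak at the start. At Junb they were 283, 344 and 156 per kb. On this scale the order of the genes turned, with Fos above Junb in each list, and the OGT percentile was 90.38 at Fos and 82.94 at Junb. The OGT peak over Junb thus had the higher score, the greater width and the lower score per kb. The HCF1 value at Junb comes from a score shared by 44 peaks and may not rank exactly. The HCF1 order of the genes on this scale is therefore uncertain.

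**Figure D2:**
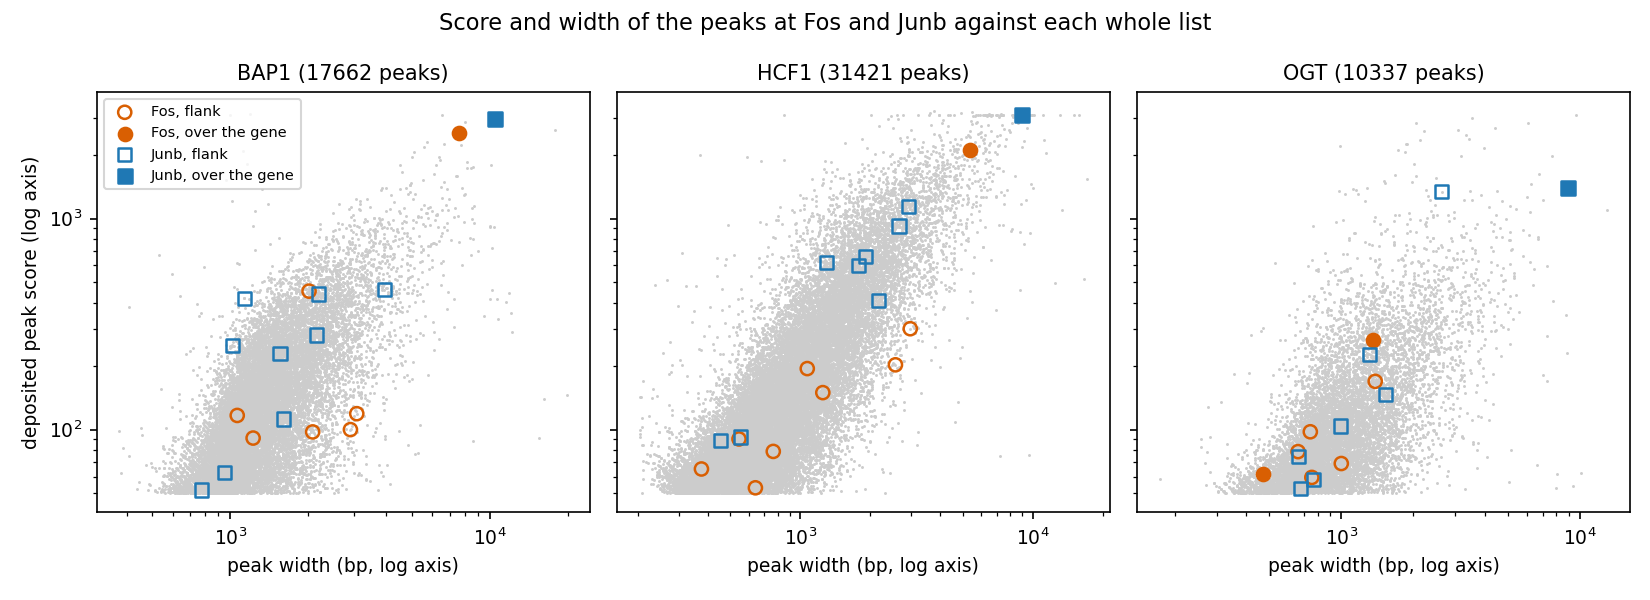
Deposited score against peak width, both on log axes, for the BAP1, HCF1 and OGT lists. Grey points are all peaks of a list, circles are the Fos window and squares the Junb window, filled where the peak overlaps the gene. The filled squares lie at the upper right of each list, and the higher filled circle of OGT, at 1354 bp and 266.79, lies in the body of its list.

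Of the merged regions in the series, made by joining peaks that shared at least 1 bp, 16.5% (5741 of 34840) held all 3 proteins. The Fos window held 3 such regions of 11 and the Junb window 6 of 11. Among all such regions, the region over Fos (7720 bp) was wider than 98.62% and that over Junb (10469 bp) wider than 99.56%, where the median was 2093 bp. The BAP1 score at Fos exceeded those of 99.91% of these regions, the HCF1 score 97.77% and the OGT score 85.94%. The Fos region held more OGT peaks than 97.70% of them. At Junb the scores exceeded 99.97% (BAP1), 99.27% (HCF1) and 99.60% (OGT).

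The windows, with the peaks over the genes included, differed in how the proteins were combined. In the Junb window, 7 of 10 BAP1 peaks overlapped both other proteins, where the share in the whole list was 33.4%. So did 7 of 9 HCF1 peaks (20.0% in the whole list) and 8 of 8 OGT peaks (62.4%). In the Fos window the counts were 3 of 7 for BAP1, 3 of 9 for HCF1 and 4 of 7 for OGT. These shares come from the overlaps on which the loci were chosen, and nothing was read from their distance to the whole lists.

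The Junb flanks carried a row of further sites with all 3 proteins. Directly upstream, centred between -6.62 and -7.31 kb, lay an OGT peak (chr8:87508635-87511277) that scored 1340.70, rank 36 in its list, nearly as high as the peak over the gene on a width of 2643 bp. Its score per kb was 507, the highest of the 15 OGT peaks in the windows. The HCF1 peak there (chr8:87507814-87510735) scored 1137.70, percentile 97.34, and the BAP1 peak (chr8:87507373-87511295) scored 460.70, percentile 95.29. The BAP1 peak was separated from the one over the gene by only 30 bp, the HCF1 peak by 759 bp and the OGT peak by 1620 bp. At this upstream site OGT thus had the highest within-list percentile of the 3 proteins, 99.65.

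Farther upstream, at about -11.4 kb, the site with all 3 proteins ranked lower. The BAP1 peak (chr8:87512957-87515107) scored 280.67, the HCF1 peak (chr8:87513229-87515133) 660.80 and the OGT peak (chr8:87513231-87514764) 146.29, with percentiles of 85.75, 92.69 and 75.71. At the upstream end of the window a cluster from chr8:87547995 to 87551991 held 2 peaks of each protein. The higher peaks scored 250.65 for BAP1 (chr8:87550147-87551164), 597.40 for HCF1 (chr8:87550208-87551991) and 227.93 for OGT (chr8:87548666-87549975). The lower ones scored 112.39 for BAP1 (chr8:87548534-87550139), 408.81 for HCF1 (chr8:87547995-87550165) and 52.47 for OGT (chr8:87550341-87551017). The strongest OGT peak of the cluster was thus centred at -46.7 kb, and the strongest BAP1 and HCF1 peaks at -48.0 and -48.5 kb.

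Downstream of Junb, BAP1 and HCF1 ranked high and OGT lower. At 9.45 kb the BAP1 peak (chr8:87492114-87494296) scored 439.22, percentile 94.68. The overlapping HCF1 peak (chr8:87492238-87494891) scored 921.07, percentile 95.86. OGT had 2 peaks there, of 104.10 (chr8:87492389-87493381) and 57.97 (chr8:87494031-87494794), with percentiles of 60.79 and 18.48. The next site, at 12.7 kb, had the same order by percentile. The scores were 229.43 for BAP1 (chr8:87489148-87490702, percentile 79.58), 621.95 for HCF1 (chr8:87489177-87490468, percentile 91.98) and 74.72 for OGT (chr8:87489566-87490227, percentile 40.07). By rank in the list, BAP1 came before HCF1 at 9.45 kb (940 and 1301) and after it at 12.7 kb (3607 and 2521). OGT percentiles in the Junb flanks were thus higher at the nearest upstream site than at either downstream site.

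Peaks without partners in the Junb window were 3 of 10 for BAP1 and 2 of 9 for HCF1, where such peaks made up 23.6% of the whole BAP1 list and 45.8% of the HCF1 list. The BAP1 peak at 31.4 kb (chr8:87470671-87471801) scored 418.24, percentile 94.03, on a width of 1131 bp, and stood apart from the other lone peaks. Those BAP1 peaks scored 62.57 and 51.87, and the lone HCF1 peaks 88.93 and 92.47. None of the 15 OGT peaks in the windows lacked a partner, and in the whole OGT list 14.0% did.

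The Fos flanks held a strong site far upstream, at which the order of the proteins differed from that over the gene. At -18.3 kb the BAP1 peak (chr12:86795525-86797536) scored 453.14, percentile 95.09. The OGT peak (chr12:86795536-86796924) scored 169.49, percentile 80.33, and the HCF1 peak (chr12:86795850-86797097) 149.89, percentile 62.67. HCF1 thus ranked lowest at this site, whereas over the gene OGT did. The centres of BAP1 and HCF1 were 57 bp apart there and those of BAP1 and OGT 300 bp.

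Immediately upstream of the broad Fos peaks lay a weaker site with all 3 proteins. The BAP1 peak (chr12:86809044-86812116) was 3073 bp wide but scored only 119.15, percentile 52.59, and ended 446 bp before the BAP1 peak over the gene. The HCF1 peak (chr12:86809073-86810142) scored 194.81 and the OGT peak (chr12:86809194-86810194) 69.20, with percentiles of 70.02 and 33.98. HCF1 and OGT were centred 86 bp apart, at the upstream end of the wider BAP1 peak.

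Downstream of Fos, 2 adjoining sites carried BAP1 and HCF1 and no OGT peak, a combination found in 20.2% of all merged regions. The first (chr12:86826354-86829324) scored 97.66 for BAP1 and 300.82 for HCF1. The second (chr12:86829635-86832539) scored 100.15 and 202.98. The widths were between 2078 and 2968 bp. HCF1 had the higher percentile at both, 79.94 and 71.00 compared with 42.69 and 44.08 for BAP1. By rank in the list the second site was nearly level, with 9113 for HCF1 and 9876 for BAP1. At the first site the ranks were 6304 and 10122. Farther out, at 24.1 kb, HCF1 (90.42) overlapped OGT (78.78) without BAP1, and at 49.9 kb BAP1 (116.87) overlapped OGT (97.80) without HCF1. Of all merged regions, 5.07% held HCF1 and OGT only and 0.870% (303) BAP1 and OGT only. The remaining peaks stood alone, namely 3 of 9 for HCF1 with scores of 53.10 to 78.96 and 1 of 7 for BAP1 with 91.32, which straddled the lower edge of the window. The Fos window thus held each combination of the proteins except OGT alone.

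**Figure D3:**
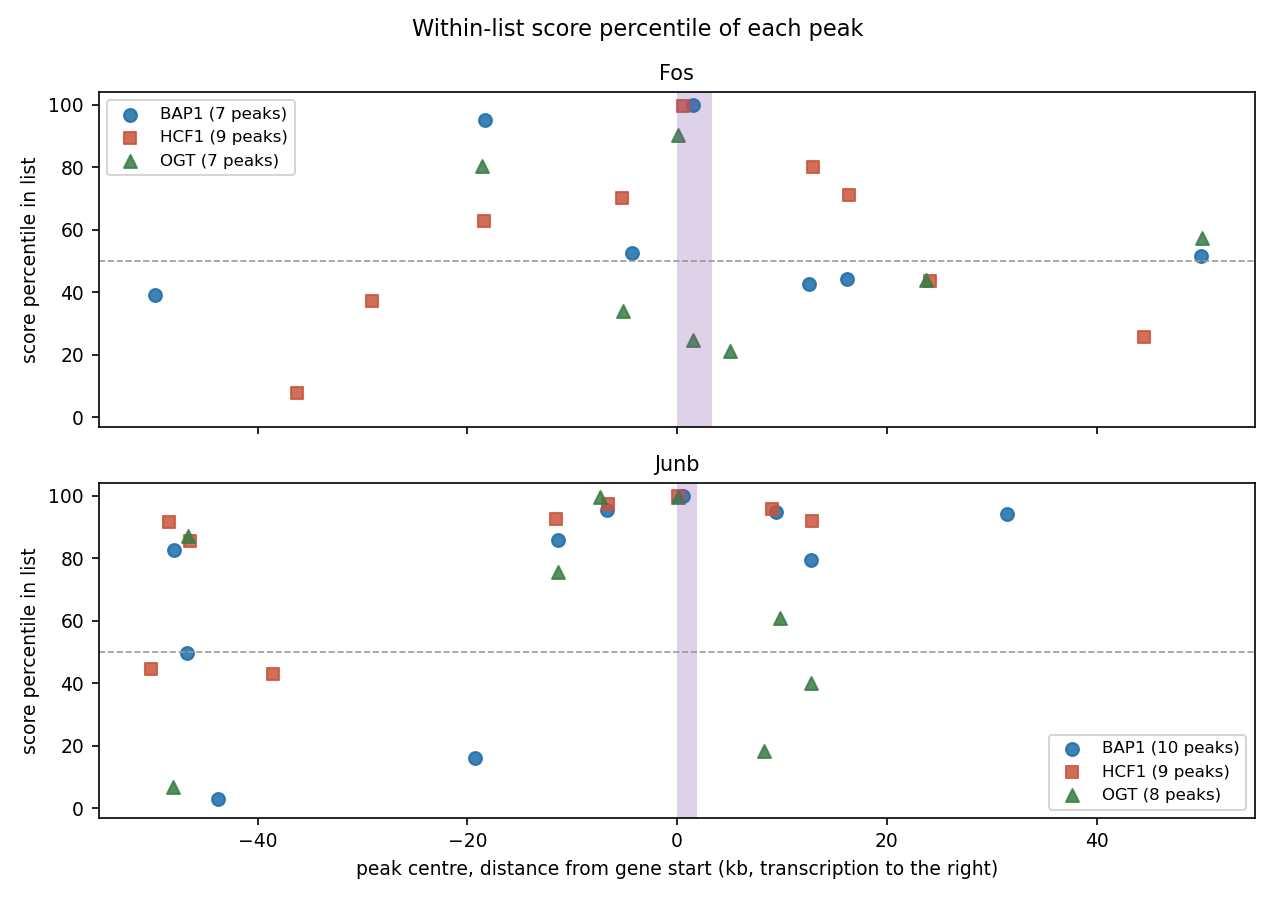
Score percentile of each of the 50 peaks within its own list against the distance of its centre from the gene start in kb, for Fos (top) and Junb (bottom). The purple band is the gene and the dashed line the list median, and BAP1, HCF1 and OGT have separate symbols. At Fos OGT points lie at 90.13 at the start and at 24.86 and 21.05 just after it, and at Junb OGT lies at 99.73 over the gene and 99.65 upstream.

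The window as a whole was more densely covered at Junb. BAP1 peaks covered 25.8 kb there and 19.5 kb at Fos, and HCF1 peaks 22.7 and 15.5 kb. OGT covered 17.5 kb at Junb and 6.4 kb at Fos, the widest gap of the 3 lists in proportion. Bases under all 3 proteins came to 16.4 kb at Junb and 3.8 kb at Fos. Nearly all OGT-covered bases at Junb lay under BAP1 (97.2%) and under HCF1 (96.9%), compared with 88.3% and 62.8% at Fos. The median percentile of the peaks in the Junb window was 84.1 for BAP1, 92.0 for HCF1 and 68.2 for OGT, and in the Fos window 51.7, 62.7 and 43.7.

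Both windows were rich in peaks by number. They were placed around genes chosen for their peaks, whereas the tiles used for comparison were not, so the shares below are a description only. The genome was cut into tiles of 103 kb, of which 9413 held a peak of any list, with a median of 4 peaks. At least as many peaks as at Fos, 23, were found in 3.67% of these tiles, and at least as many as at Junb, 27, in 2.04%. By list, the share of tiles with at least as many peaks was 4.04% for the 7 BAP1 peaks at Fos and 1.01% for the 10 at Junb. For HCF1, with 9 peaks at each locus, it was 8.51%. For OGT it was 1.92% for the 7 peaks at Fos and 1.19% for the 8 at Junb. Without a further score limit, the number of OGT peaks in these windows thus hardly differed between the loci, while their widths and scores did. With a score of at least 100, 2 OGT peaks were left at Fos and 5 at Junb.

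The windows end at set positions, and peaks went on outside them. An HCF1 peak that straddled the upper edge at Junb scored 92.47, and the next HCF1 peak, 5.61 kb outside, scored 1170.11. Above the Fos window the next OGT peak lay 4.92 kb outside and scored 484.31, higher than any OGT peak inside it. Below the Fos window the nearest HCF1 peak lay 2.79 kb outside, with a score of 88.36.

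The surroundings of the genes differ in the RefSeq gene order of GRCm38.p6. Junb lies between Prdx2, which encodes a peroxiredoxin, and Hook2, which encodes a microtubule-linker protein, with Rnaseh2a and Rtbdn beyond Prdx2 and Best2 and Get3 beyond Hook2. The genes next to Fos are the noncoding Gm38543 and Gm32296, and the nearest protein-coding ones are Tmed10 and Jdp2, which encodes a repressor of AP-1. Positions were not converted between builds, so the flanking peaks were not assigned to these genes.

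Among regions with very high BAP1 and HCF1 scores, OGT at Fos ranked below the median. This comparison was added after the values were seen. It takes the single highest OGT score of a region, and score rose with width in the OGT list. It was not made per kb, a scale on which the OGT percentile was higher at Fos (90.38) than at Junb (82.94). In 72 merged regions the highest BAP1 and the highest HCF1 peak were both at or above percentile 99, and 70 of these held an OGT peak. The highest OGT percentile in those 70 had a median of 97.4 (quartiles 90.4 and 98.7). At Fos it was 90.13, with 19 of the 72 regions lower or without OGT and 52 higher. At Junb it was 99.73, with 67 lower and 4 higher. With a limit of 99.5 there were 30 regions, of which 5 were lower than Fos or without OGT and 24 were higher. The lower quartile of those with OGT was then 95.3. Among the regions with OGT, Fos was thus below the lower quartile at the limit of 99.5. At the limit of 99 it lay only just below it (90.13 and 90.4). The count of 19 of the 72 also takes in regions without OGT. Fos was still inside the range of these regions. Of the 72 regions, 20 had at least 3 OGT peaks.

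**Figure D4:**
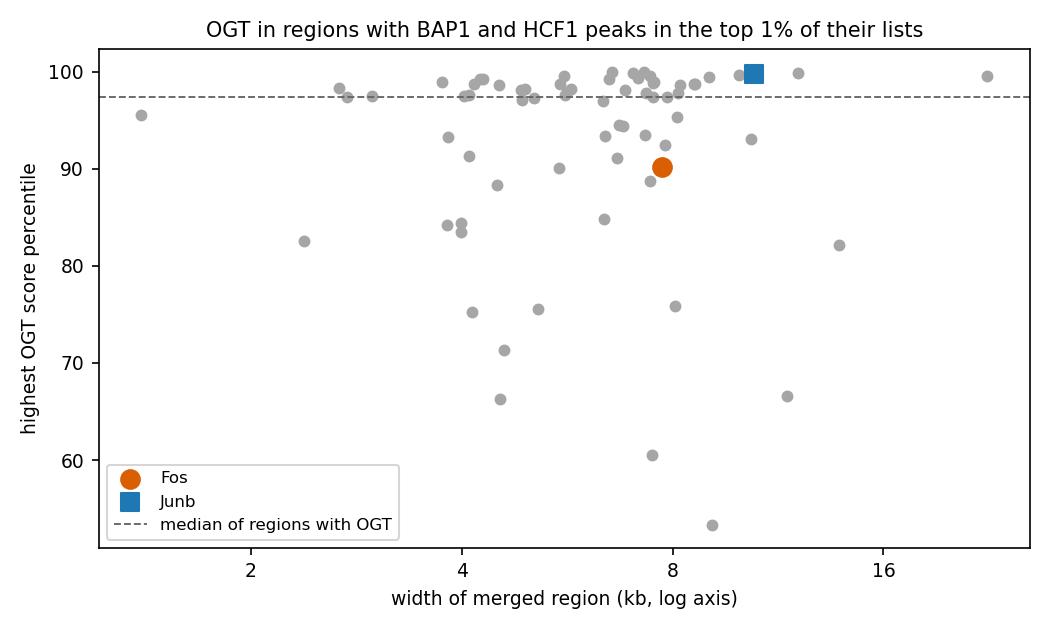
Highest OGT score percentile against the width of the merged region in kb (log axis), for the 70 regions with OGT in which BAP1 and HCF1 both had a peak in the top 1% of their lists. The dashed line is the median of 97.4, with Fos (circle) below it at 90.13 and Junb (square) above it at 99.73.

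The regions most like each locus were found from 4 measures, the highest percentile of each protein and the percentile of the width among regions with all 3 proteins. The 3 nearest to Fos were chr12:81209725-81217150, chr5:125868436-125875108 and chr6:122795312-122807022. The nearest of them scored 1583.53 for BAP1, 1673.72 for HCF1 and 247.18 for OGT, and held 4 HCF1 peaks where Fos held 1. The 3 nearest to Junb were chr17:34251041-34263139, chr19:5829761-5852280 and chr17:71195104-71204134. The nearest scored 2876.56, 3100.00 and 1975.33, on a width of 12099 bp divided among 2 BAP1, 4 HCF1 and 2 OGT peaks, whereas Junb was covered by 1 peak of each. Likeness here means like ranks and widths only.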

How the data were processed

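Per the labels' protocols, adaptor-ligated fragments of 175 to 225 bp were selected on a gel, amplified for 18 cycles and read on a Genome Analyzer II. GSNAP, MACS 1.4 and build mm9 are named in the submitters' processing notes, without settings. The authors deposited 1 peak list per ChIP library, and each peak has a position and a score whose definition is not given. The lowest scores were 50.01 (BAP1), 50.00 (HCF1) and 50.00 (OGT), and 44 HCF1 peaks share a score of 3100.00, which 2 BAP1 peaks and 1 OGT peak also have. Depth is unknown, and it affects scores, widths and numbers of peaks. Starts were read as counted from 0 and are printed counted from 1. No control precipitation with anti-FLAG from untagged cells was analysed here.

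Overlap meant at least 1 bp. Percentiles are shares of the list with a lower score. Windows and gene positions came from the selection rule, and strands, promoters and gene order from RefSeq (GRCm38.p6). No test was made, since each protein has 1 library. The members, motifs and measures were chosen with earlier results of these data known. Named peaks were those within 2 kb of a gene, those in regions with all 3 proteins and the highest of each list, and a few lone or shared flanking peaks and the peaks next to the windows were named after their values were seen. Planned comparisons of protein sequences were not run. Alternatives were other windows, scores, overlap rules and widths. Scripts used Python 3.11.15, numpy 2.4.6, scipy 1.17.1 and matplotlib 3.10.9, and were tested on simulated intervals.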

Additional observations from a re-analysis of the deposited data

How the results depend on the processing

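The counts depended on the window and the score limit. With flanks of 100 kb there were 11 BAP1 and 18 HCF1 peaks at Fos and 18 BAP1, 19 HCF1 and 14 OGT peaks at Junb, and with flanks of 25 kb 6 BAP1 and 5 HCF1 peaks at Junb. With a score of at least 100, 5 HCF1 and 2 OGT peaks were left at Fos and 5 OGT peaks at Junb. Regions with all 3 proteins at Fos numbered 1 with centres within 250 bp, 1 with reciprocal overlap of 50% and 0 with peaks trimmed to 200 bp. At Junb they numbered 3 with centres and 2 with trimmed peaks. Among peaks scoring at least 100, the percentiles over the gene were 99.09 (HCF1) and 76.18 (OGT) at Fos and 99.69 (HCF1) and 99.35 (OGT) at Junb. Among peaks overlapping both other lists they were 99.92 (BAP1), 97.96 (HCF1) and 87.00 (OGT) at Fos and 99.33 (HCF1) at Junb. With the score divided by width they were 99.37 (BAP1) and 93.94 (HCF1) at Fos and 98.49 (BAP1), 91.20 (HCF1) and 82.94 (OGT) at Junb. The order of the genes thus turned in each list, with the uncertainty given above for HCF1. Peaks trimmed to 200 bp by construction covered little of a gene, 5.93% (BAP1), 5.93% (HCF1) and 11.9% (OGT) of Fos and 10.8% (BAP1), 10.8% (HCF1) and 10.2% (OGT) of Junb. With the 50 bases after the start included, 2 kinds of motif matched at Junb. The other 27 values obtained under alternatives stayed within 1.5 times the count reported or, for shares and percentiles, within its 95% exact binomial interval. Peaks stitched over 1 kb and shifted tiles, both added after the data were seen, were among them. The unknown depth limits every statement on a missing peak. No paired analysis was possible because there was a single library for every protein.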

Other observations

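Some neighbouring peaks of a list were separated by very short gaps. Besides the gap of 30 bp between the BAP1 peaks at Junb, the 2 BAP1 peaks of the cluster at the upstream end of the Junb window were 7 bp apart and the 2 HCF1 peaks of that cluster 42 bp apart. With peaks stitched over gaps of up to 1 kb, regions with all 3 proteins numbered 2 at Fos in place of 3 and 5 at Junb in place of 6.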
